A study of Mus musculus with 121 samples.

Results

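Mono and Gran-2 are 2 of the 12 state names that the authors' deposited annotation gives to single bone marrow cells, and the 6 Mono cells are set here against the 13 Gran-2 cells of the same sort and the same run. The cells were chosen by the run name that all 46 cells labelled CD11b+ GMP-P carry and by the deposited state name, which leaves 19 cells of 121 in all. The state abbreviations are used as deposited and are not expanded. The mice were C57BL/6, and every cell of the series, Mono and Gran-2 alike, carries the R412X allele of Gfi1, written Gfi1-R412X/- in one label and Gfi1-R412X-HTZ in another. No cells of another Gfi1 genotype were analysed here, and the comparison is between cell states within 1 genotype and does not measure the mutation. Hindlimb marrow was enriched for cells bearing CD117, the receptor Kit, on beads and then sorted, single cells were captured on the Fluidigm C1 chip, and libraries were made with the SMARTer and Nextera XT kits. The labels give no age and name no animal, so how many mice gave these cells is not known here.

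Granulocyte-monocyte progenitors (GMP) give rise to neutrophils and monocytes. As background, the transcription factor Irf8 drives the monocyte and dendritic cell route, while Gfi1, a repressor of transcription, is needed for neutrophil formation and holds down monocytic genes. A developing neutrophil first fills primary granules with the peroxidase myeloperoxidase and proteases such as elastase, then secondary granules with lactoferrin, Ngp and Camp, and later tertiary granules. CD11b, the integrin chain encoded by Itgam, is carried on the surface of maturing cells of both routes.

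Values are log2(TPM + 1), called the level below, and detection means a TPM of at least 1. A difference is the mean level over the 6 Mono cells minus the mean level over the 13 Gran-2 cells. A gene is counted as past the difference when that value is 3 or more in either direction, which is 8-fold on this scale, and when 50% or more of the higher state's cells detect it. With no animal named, each state is 1 sample, so no test between them was made and no p-value is given. SD values describe the spread over single cells and are no replicate error, and the scale understates differences of low genes. For genes at 0 in many cells, a difference of mean levels can also exceed the log2 ratio of mean TPM. That ratio is given for some genes below. The authors assigned the states from these same cells, so all gene differences below describe that annotation and are no independent evidence for it. Shares of cells carry exact (Clopper-Pearson) 95% intervals, which cover counting error only. A share of 0 carries instead an upper limit of 3 cells out of the cells of that state, which is not the exact interval.

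Of 23946 genes, 6671 were detected in at least 4 of the 19 cells and were kept. In Mono, 384 of them were higher by at least the set difference, 5.76% of those kept, and 58 were lower, 0.869%. The median difference over all kept genes was 0.48. Mono cells detected between 3512 and 4738 genes, with a median of 4434, and Gran-2 cells between 2446 and 4509, with a median of 3760. The Mono cell with the fewest lay above 5 of the 13 Gran-2 cells. Against the other 8 Gran-2 cells, the counts were 258 higher and 146 lower in Mono, and the median difference was 0.25, an alternative chosen after the data were seen. On the log2 ratio of mean TPM the counts were 270 higher and 157 lower, and the median was 0.03. Genes higher in Mono were thus 86.9% of those past the difference in the main count, 63.9% with the 8 Gran-2 cells and 63.2% on the ratio of means. The 20 most abundant genes of a cell took between 15.5% and 19.1% of the TPM in Mono cells and between 15.6% and 34.8% in Gran-2 cells. Their part, and that of the number of genes detected, in the counts was not tested. The filter also treats the states unequally, since a gene found in one state alone needs 4 of 6 Mono cells but 4 of 13 Gran-2 cells.

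**Figure D1:**
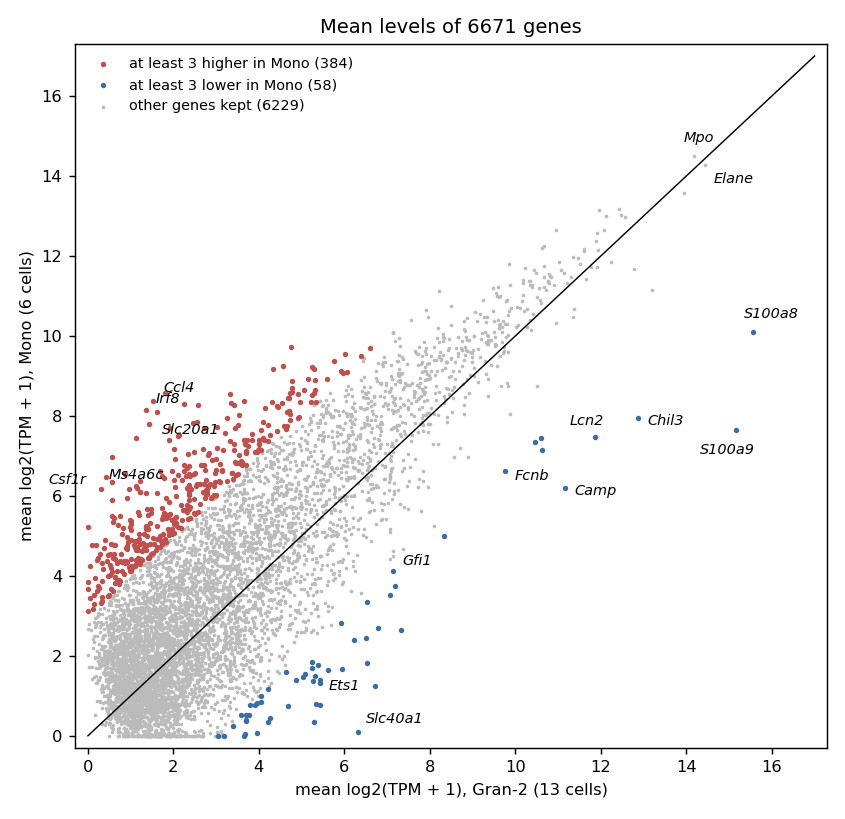
Mean log2(TPM + 1) of the 6671 genes kept, over 6 Mono cells (vertical axis) and 13 Gran-2 cells (horizontal axis), with 1 point per gene and the line of equal means. The 384 genes at least 3 higher in Mono lie along the upper left edge at middle levels, while S100a8, S100a9, Chil3, Lcn2 and Camp stand apart at the right as abundant genes that were lower in Mono.

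The markers given for the states differed between them, and all 4 overlapped in range. Irf8 was detected in 6 of 6 Mono cells (100%, 54.1 to 100), with levels from 6.16 to 9.42 and a median of 8.32. It was detected in 3 of 13 Gran-2 cells (23.1%, 5.04 to 53.8), where levels ran from 0 to 8.23 with a median of 0. The mean level was 8.15 ± 1.16 in Mono and 1.36 ± 2.72 in Gran-2 (SD over 6 and 13 cells), a difference of 6.79. One Gran-2 cell reached the Mono range for Irf8, and the other 12 lay below it. Ms4a6c, a membrane protein of the MS4A family found on monocytes, had levels from 2.19 to 9.45 with a median of 8.32 in Mono, against 0 in 12 of 13 Gran-2 cells and 7.39 in the same single cell, a difference of 6.39. Chil3, which encodes the chitinase-like protein Ym1, had levels from 2.90 to 13.49 with a median of 7.93 in Mono, against 10.18 to 14.68 with a median of 13.04 in Gran-2, a difference of −4.92. Fcnb, the lectin ficolin B, had levels from 0.67 to 10.64 with a median of 8.36 in Mono, against 0 to 13.07 with a median of 10.59 in Gran-2, a difference of −3.14. Irf8 and Ms4a6c were thus close to all-or-none, whereas Chil3 was detected in every cell of both states and Fcnb in 5 of 6 Mono and 12 of 13 Gran-2 cells. Under the alternative settings the Irf8 difference ran from 3.59 to 8.32, Ms4a6c from 3.69 to 8.32, Chil3 from −6.03 to −2.34 and Fcnb from −4.0 to −1.95. Chil3 was no longer past the difference on the ratio of mean TPM, nor was Fcnb there, with a pseudocount of 10 (−2.57), on medians (−2.23) and without some single cells.

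**Figure D2:**
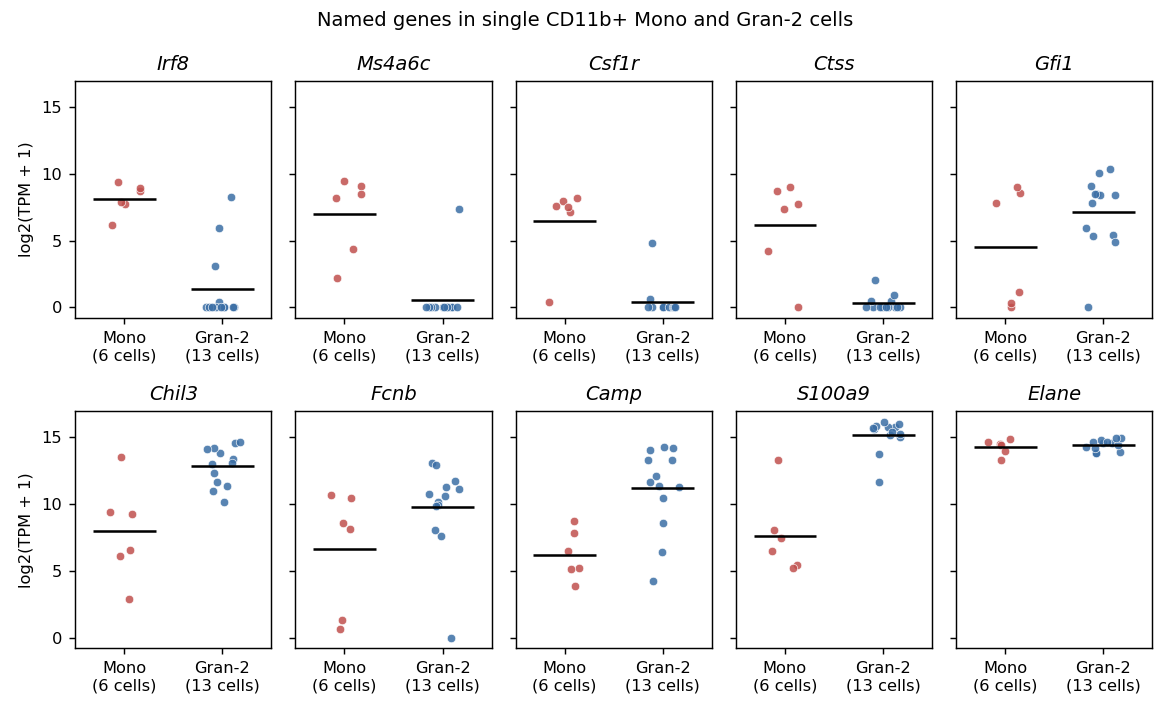
Levels, as log2(TPM + 1), of 10 genes in the 6 Mono and 13 Gran-2 cells, with 1 point per cell and a bar at the mean. Irf8, Ms4a6c, Csf1r and Ctss are near 0 in nearly all Gran-2 cells, S100a9 and Camp are mostly higher there, and Elane is alike in range in both states.

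The promoters of these 4 genes are shown because they are the markers that define the comparison, with the most differing gene, S100a9, beside them. Each line gives the 250 bases before the annotated start from RefSeq on GRCm38.p6, the most upstream start where a gene has several. That build is not the one named for the deposited values, so the coordinates belong to the sequences only. Capitals mark matches on either strand to AGGAAGTG, an 8-base form of the site of PU.1, a factor of all myeloid cells, or to TTGCNNAA, a loose form of the site of the C/EBP family, which acts in granulocyte genes. The 2 motifs do not overlap in any of these windows. Irf8 is at chr8:120736108-120736357 on the plus strand, Ms4a6c at chr19:11469118-11469367 on the plus strand, Chil3 at chr3:106167565-106167814 on the minus strand, Fcnb at chr2:28084879-28085128 on the minus strand and S100a9 at chr3:90695722-90695971 on the minus strand.
Irf8: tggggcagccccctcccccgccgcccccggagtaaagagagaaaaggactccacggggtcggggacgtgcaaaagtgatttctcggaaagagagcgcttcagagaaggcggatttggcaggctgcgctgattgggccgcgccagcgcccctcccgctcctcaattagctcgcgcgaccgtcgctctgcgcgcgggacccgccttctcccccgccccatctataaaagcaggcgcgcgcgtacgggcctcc
Ms4a6c: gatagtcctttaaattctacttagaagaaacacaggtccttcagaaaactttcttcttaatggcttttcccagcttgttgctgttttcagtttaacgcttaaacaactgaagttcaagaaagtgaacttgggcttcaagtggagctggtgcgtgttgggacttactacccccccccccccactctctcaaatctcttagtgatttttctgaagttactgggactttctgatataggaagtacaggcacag
Chil3: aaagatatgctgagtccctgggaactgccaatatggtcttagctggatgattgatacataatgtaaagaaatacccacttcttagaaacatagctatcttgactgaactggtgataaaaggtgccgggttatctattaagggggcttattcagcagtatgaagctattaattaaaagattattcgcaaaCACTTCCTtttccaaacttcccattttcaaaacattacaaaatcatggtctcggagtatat
Fcnb: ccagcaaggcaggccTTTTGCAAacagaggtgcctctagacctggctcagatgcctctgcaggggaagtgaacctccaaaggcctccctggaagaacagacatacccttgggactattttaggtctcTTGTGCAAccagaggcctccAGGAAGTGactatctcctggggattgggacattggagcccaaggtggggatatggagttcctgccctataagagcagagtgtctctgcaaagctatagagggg
S100a9: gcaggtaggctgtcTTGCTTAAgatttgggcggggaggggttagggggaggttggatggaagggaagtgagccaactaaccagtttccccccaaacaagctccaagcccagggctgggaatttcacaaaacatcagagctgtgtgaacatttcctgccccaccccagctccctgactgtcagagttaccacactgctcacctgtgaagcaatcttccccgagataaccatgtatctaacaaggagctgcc

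Neither motif is in the Irf8 or the Ms4a6c window. The Chil3 window holds 1 PU.1 match, CACTTCCT, whose first base is 61 bases before the start. Fcnb holds 1 PU.1 match, AGGAAGTG, at 103 bases before it, and 2 C/EBP matches, TTTTGCAA at 235 and TTGTGCAA at 123. S100a9 holds 1 C/EBP match, TTGCTTAA, at 236. Among the 50 promoters found for the 58 genes lower in Mono, 10 held the C/EBP letters (20%), against 24 of the 311 found for the 384 higher genes (7.72%), 7.99% of promoters of all kept genes and 9.55% of all 27025 promoters. The PU.1 letters were in 4 of the 50 (8%), in 11 of the 311 (3.54%), in 3.87% of promoters of all kept genes and in 3.18% of all promoters. Median GC content was 55.6% in the promoters of the lower genes and 59.6% in those of the higher genes. It was 59.6% in those of all kept genes and 52% in all promoters. These shares are descriptions without a test, and a match is not a binding site.

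Among transcription factors of the monocytic and dendritic route, 8 of 14 listed genes passed the filter, with a median difference of 2.01. Past the difference 2 were higher and 1 was lower, beside 5.76% and 0.869% of all kept genes. Klf4, which promotes monocyte formation downstream of Irf8, was the other higher one beside Irf8. Its levels ran from 0.83 to 8.08 with a median of 6.19 in Mono, against 0 to 9.67 with a median of 0 in Gran-2, a difference of 3.61, or 2.62 against the 8 Gran-2 cells with more genes detected, 1.77 with a pseudocount of 10 and 0.42 on the ratio of mean TPM. Zeb2 (difference 2.40) and the immediate early factor Egr1 (2.55) did not reach the set difference. Id2, which blocks DNA binding by helix-loop-helix factors, was the lower one. It was detected in 0 of 6 Mono cells (upper limit 50%, set by 3 cells) and in 8 of 13 Gran-2 cells, a difference in level of −3.87, or −2.36 with a pseudocount of 10. Irf4, Irf5, Batf3 and Maf were detected in none of the 19 cells.

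Of 12 granulocytic factors, 9 passed the filter, with a median difference of −0.54. Only Ets1 was past the difference, downward, beside 0.869% of all kept genes. Ets1, founder of the ETS factor family, had levels from 0 to 5.54 with a median of 0.63 in Mono, against 0 to 9.49 with a median of 6.49 in Gran-2, a difference of −4.09, or −2.48 with a pseudocount of 10. Gfi1, the mutated gene, was detected in 4 of 6 Mono cells (66.7%, 22.3 to 95.7) and 12 of 13 Gran-2 cells (92.3%, 64 to 99.8). Its level was 4.49 ± 4.41 in Mono and 7.14 ± 2.79 in Gran-2 (SD over 6 and 13 cells), a difference of −2.65, and the gene-level value does not tell the mutant transcript from another. In Mono it was split, with 3 cells between 7.83 and 9.05 and 3 at 1.14 or lower. Cebpe, which drives secondary granule genes, had a difference of −2.57 and was detected in 3 of 6 Mono and 11 of 13 Gran-2 cells.

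Irf8 and Gfi1 were detected together in 4 of 6 Mono cells and in 3 of 13 Gran-2 cells. Among these, Mono cell 83 had Gfi1 at a level of 1.14, just above the limit of detection. Irf8 without Gfi1 was seen in 2 of 6 Mono cells and 0 of 13 Gran-2 cells (upper limit 23.1%). Gfi1 without Irf8 was seen in 0 of 6 Mono cells (upper limit 50%) and in 9 of 13 Gran-2 cells (69.2%, 38.6 to 90.9). Each state thus held cells with both transcripts, and the cells with a single one of them split by state. Irf8 is a given marker of Mono and was detected in 6 of 6 Mono cells. The split therefore restates that marker and is no separate evidence. Of 16 genes described as repressed by Gfi1, 8 passed the filter, and their median difference was 2.46. That median was 0.47 without the filter on detection, 1.24 with a pseudocount of 10 and 1.05 on the ratio of mean TPM. Irf8 and Csf1r were past the difference upward and Id2 downward, beside 5.76% and 0.869% of all kept genes. Bax, Egr1 and Zeb2 had differences of 2.51, 2.55 and 2.40. This list shares Irf8, Id2, Egr1 and Zeb2 with the monocytic factors. Of the 11 factors shared by both routes, all passed the filter and none was past the difference. Their median was 0.40, with Nfe2 at 2.80 and Stat3 at −2.77. Spi1, which encodes PU.1, was detected in 2 of 6 Mono and 8 of 13 Gran-2 cells, a difference of −0.86. Cebpa was detected in 0 of 6 Mono cells (upper limit 50%) and 3 of 13 Gran-2 cells.

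Monocyte progenitor markers were the list with the highest median difference among those with 6 or more kept members, 3.07. Of 26 genes 16 passed the filter, and all 16 were higher in Mono, beside 63.2% of all kept genes. Of the 16, 8 were past the difference, beside 5.76% of all kept genes, and none was lower. Ms4a6c is a given marker, and it, Csf1r, Ctss, Pld4, Ccl9 and Ly86 were each detected in 2 or fewer Gran-2 cells. These 6 genes reached the 4 cells of the filter only with their Mono cells. The counts of this list therefore partly restate the state names and the filter and are no separate evidence. Csf1r, the receptor for the monocyte growth factor M-CSF, had levels from 0.38 to 8.22 with a median of 7.56 in Mono, against 0 in 11 of 13 Gran-2 cells and a highest value of 4.80, a difference of 6.06. Ctss, the lysosomal protease cathepsin S, had levels from 0 to 9.02 with a median of 7.57 in Mono, against 0 to 2.09 with a median of 0 in Gran-2, a difference of 5.88. Both were detected in 5 of 6 Mono cells and 1 of 13 Gran-2 cells, and the Mono cell without them, cell 67, was the same. F13a1 (coagulation factor XIII A chain), Ccl9 (a chemokine), Ly86 (partner of the receptor RP105) and Pld4 (an endolysosomal nuclease) differed by 4.88, 4.56, 4.41 and 5.79. Cd68, a lysosomal membrane glycoprotein, differed by 3.20. Ms4a6d, Klra2, Fn1 and Vcan were detected in none of the 19 cells, and Cx3cr1, a receptor of later monocytes, was detected in 0 of 6 Mono cells (upper limit 50%) and in 1 of 13 Gran-2 cells. Lyz2, lysozyme, which both routes make, had a difference of 1.46, and this turned to −0.19 against the 8 Gran-2 cells with more genes detected. The list as a whole took between 0.286% and 1.10% of the TPM in Mono cells and between 0.0243% and 0.827% in Gran-2 cells.

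Receptors and surface genes had smaller median differences. The counts past the difference stand beside 5.76% of all kept genes upward and 0.869% downward. Of 23 cytokine and growth factor receptors, 16 passed the filter, with a median difference of 0.59. Csf1r and the interferon receptor chain Ifnar2 (difference 3.97, or 2.0 on the ratio of mean TPM) were past the difference and none was lower. Csf3r, the receptor for the neutrophil growth factor G-CSF, was detected in 6 of 6 Mono and 12 of 13 Gran-2 cells and differed by 0.31, or −1.03 against the 8 Gran-2 cells. Of 19 chemokine receptor and adhesion genes 11 passed, with a median of 1.42, and 1 was past the difference upward and none downward. That median was 0.21 without the filter, 0.15 with detection in at least 10 cells, 0.59 with a pseudocount of 10 and 0.50 against the 8 Gran-2 cells. Ccr2, the receptor that guides monocytes out of marrow, differed by 2.74 and did not reach the set difference. Of 14 Fc-gamma receptor and Ly6 family surface genes 11 passed, with a median of 1.0, and 3 were past the difference, Cd48, Cd34 and Cd93. Cd48, a ligand of CD244, had levels from 6.70 to 9.78 with a median of 8.24 in Mono, against 0 to 8.27 with a median of 0.87 in Gran-2. Cd34, a marker of early progenitors, was detected in 6 of 6 Mono cells and 4 of 13 Gran-2 cells, a difference of 5.16.

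Of the genes of the sort, Cd34 alone was past the difference. Transcripts of Itgam, the CD11b gene, were found in 5 of 6 Mono cells (83.3%, 35.9 to 99.6), against 8 of 13 Gran-2 cells (61.5%, 31.6 to 86.1), with a difference in level of 0.15. Kit, the target of the beads, was detected in 4 of 6 Mono and 4 of 13 Gran-2 cells, a difference of 2.73. Fcgr3 and Ly6c2, surface genes of myeloid progenitors, were detected in all 19 cells and differed by 1.0 and 0.74. Innate pattern receptors had members in both directions. Of 27 genes 14 passed the filter, with a median of −0.47. Past the difference 1 was higher and 3 were lower, beside 5.76% and 0.869% of all kept genes. Clec7a, the beta-glucan receptor dectin-1, was higher (3.82), and Trem1, which amplifies inflammatory signals, the paired receptor Pilrb1 and the C-type lectin Clec4a2 were lower (−3.47, −3.94 and −3.02). With a pseudocount of 10 none of these 4 was past the difference.

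A part of the antigen processing genes was higher in Mono. Of 16 genes 9 passed the filter, and the median was 1.63. Of the 9, 3 were past the difference upward, beside 5.76% of all kept genes, and none was lower past it. Psmb8, a subunit of the immunoproteasome, had levels from 7.26 to 9.98 with a median of 8.75 in Mono, against 0 to 9.54 with a median of 1.09 in Gran-2, a difference of 5.22, or 1.74 on the ratio of mean TPM. Its partner Psmb9 differed by 5.0, or 2.39 on that ratio, and H2-DMa, which helps load class II, by 4.51. Cd74, the class II invariant chain, was detected in none of the 19 cells, nor were H2-Aa, H2-Eb1, H2-DMb2 and Ciita, while the class II gene H2-Ab1 was detected in 1 of 6 Mono and 1 of 13 Gran-2 cells. The class I gene H2-K1 differed by 1.89 and did not reach the set difference. Of 23 lysosomal genes 21 passed, with a median of 1.78, or 0.60 on the ratio of mean TPM. Of the 21, 16 were higher in Mono by any amount (76.2%), beside 63.2% of all kept genes. Ctss, Lamp1 (3.84) and Cd68 were past the difference, beside 5.76% of all kept genes. On the ratio of mean TPM Lamp1 differed by 0.33. Cd68 and Ctss are also in the monocyte list.

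Primary granule genes, apart from Ctsc, had close mean levels in the 2 states. All 11 passed the filter, the median difference was 0.31, and none was lower past the difference. Mpo, myeloperoxidase, had levels from 13.98 to 15.36 with a median of 14.46 in Mono, against 12.91 to 15.30 with a median of 14.18 in Gran-2. Elane, neutrophil elastase, had levels from 13.26 to 14.86 in Mono, against 13.81 to 14.98 in Gran-2, and Prtn3, proteinase 3, differed by −0.03. The 4 genes Mpo, Elane, Prtn3 and Ctsg were all detected in 6 of 6 Mono cells (100%, 54.1 to 100), against 13 of 13 Gran-2 cells (100%, 75.3 to 100). The list took between 4.43% and 9.91% of the TPM in Mono cells and between 4.27% and 9.24% in Gran-2 cells. Ctsc, the protease that activates granule serine proteases, was the exception, with levels from 1.89 to 10.05 in Mono and from 0 to 9.64 in Gran-2, a difference of 4.05, or 2.92 against the 8 Gran-2 cells with more genes detected and 1.74 on the ratio of mean TPM.

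Most secondary and tertiary granule genes had lower levels in Mono. Of 21 genes 16 passed the filter, and the median was −2.70. Of the 16, 15 were lower in Mono, beside 2457 of all 6671 kept genes. Past the difference 8 were lower, beside 0.869% of all kept genes. Camp, the precursor of an antimicrobial cathelicidin peptide, had levels from 3.86 to 8.70 with a median of 5.82 in Mono, against 4.26 to 14.24 with a median of 11.63 in Gran-2, a difference of −4.96. Lcn2, which binds bacterial siderophores, had levels from 4.29 to 10.003 with a median of 8.40 in Mono, against 9.76 to 12.97 with a median of 12.18 in Gran-2, a difference of −4.40. Ngp, neutrophilic granule protein, and Pglyrp1, which binds peptidoglycan, differed by −3.14 and −3.47, and Cd177, a neutrophil surface and granule glycoprotein, by −4.28. Ltf, lactoferrin, was low in both, with medians of 1.85 in Mono and 2.73 in Gran-2 and a difference of −1.37. Hp (haptoglobin) and Mmp8 (neutrophil collagenase) differed by −0.69 and −1.14. Lower in Mono did not mean absent, since Ngp, Camp and Lcn2 were all detected in 6 of 6 Mono cells and 13 of 13 Gran-2 cells. The list took between 0.697% and 2.23% of the TPM in Mono cells and between 2.42% and 8.06% in Gran-2 cells. The states did not overlap in this share, by a narrow margin. They did overlap in the mean level of the list, 5.07 to 8.61 in Mono and 6.83 to 10.28 in Gran-2. No other per-cell share or list level was without overlap, and this list holds the markers Chil3 and Fcnb.

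Among S100 genes, which encode small calcium-binding proteins, the pair that forms calprotectin differed most. S100a9 had levels from 5.21 to 13.27 with a median of 6.95 in Mono, against 11.65 to 16.14 with a median of 15.62 in Gran-2. Its mean level was 7.64 ± 2.97 in Mono and 15.16 ± 1.22 in Gran-2 (SD over 6 and 13 cells), a difference of −7.52, the lowest of all genes past the difference. S100a8 had levels from 6.35 to 14.38 with a median of 10.37 in Mono, against 12.77 to 16.90 with a median of 16.05 in Gran-2, a difference of −5.47. Together they took between 0.0117% and 3.12% of the TPM in Mono cells and between 1.02% and 17.9% in Gran-2 cells. The lowest Gran-2 share was that of cell 59, followed by cell 79 at 2.29%. The highest Mono value of both genes was that of cell 55, and without it the S100a9 difference was −8.65. S100a10, the annexin A2 partner, went the other way, with a difference of 3.91, and the list median over 6 kept members of 11 was −0.35. Because TPM sum to the same total in each cell, a large share for these genes lowers all others. With the secondary granule and S100 genes left out of the total, an alternative chosen after the data were seen, 346 genes were higher and 76 lower in Mono past the difference.

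Of 15 late neutrophil genes measured, 7 passed the filter, and the median was −1.13. Past the difference 3 were lower in Mono, beside 0.869% of all kept genes. They were Cd177, Trem1 and Il1f9, an interleukin-1 family cytokine, with differences of −4.28, −3.47 and −3.55. Ly6g, the surface marker of mature neutrophils, was detected in none of the 19 cells, nor were Il1b, Fpr1, Stfa1 and Stfa2. NADPH oxidase subunits had a median of −0.96 over 8 kept genes with none past the difference. Cybb, the catalytic chain, had levels from 2.99 to 9.13 in Mono and from 2.30 to 10.25 in Gran-2.

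**Figure D3:**
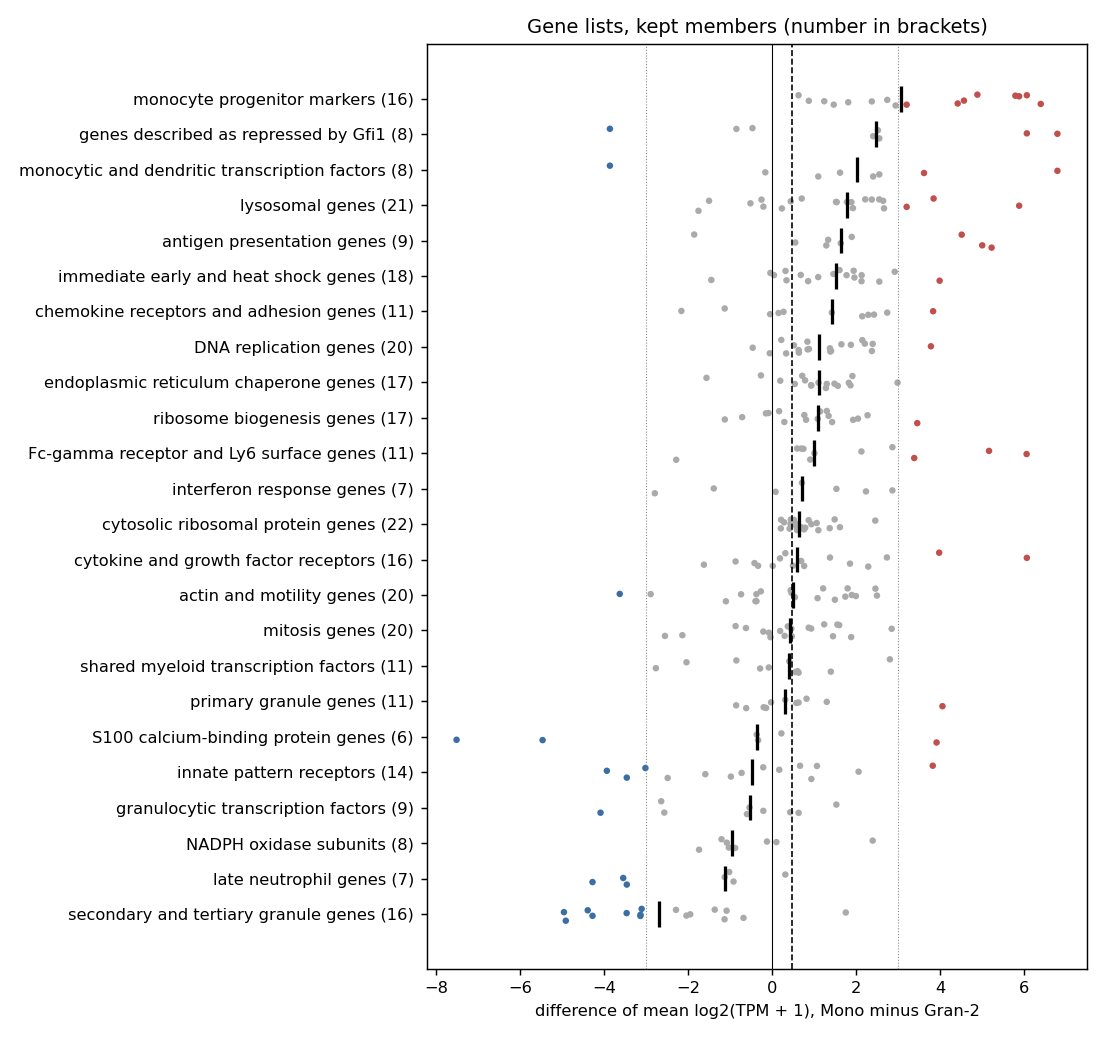
Difference of mean log2(TPM + 1), Mono minus Gran-2, for the kept members of each list with 6 or more of them, with 1 point per gene, a black bar at the list median, dotted lines at −3 and 3 and a dashed line at the median of all kept genes, 0.48. Red points are past the difference upward and blue points downward, and the medians run from 3.07 for monocyte progenitor markers to −2.70 for secondary and tertiary granule genes.

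Large differences were also found in genes outside the lists. Ccl4, the chemokine MIP-1 beta, had levels from 1.06 to 11.54 with a median of 9.39 in Mono, against 0 to 9.67 with a median of 0 in Gran-2, the largest difference upward at 6.86. Ass1, which makes argininosuccinate from citrulline, had levels from 6.59 to 10.12 with a median of 8.60 in Mono, against 0 to 8.39 with a median of 0 in Gran-2, a difference of 6.76. Odc1, the first enzyme of polyamine synthesis, and Slc20a1, a phosphate transporter, differed by 6.47 and 6.38 (2.83 for Slc20a1 on the ratio of mean TPM), and each was detected in 6 of 6 Mono and 3 of 13 Gran-2 cells. Rexo2 (an exonuclease of small RNAs), Copb2 (a coat protein of Golgi vesicles) and Scamp3 (a membrane trafficking protein) were detected in 6 of 6 Mono cells and differed by 6.31, 5.78 and 5.71. Tmem176b, a membrane protein of myeloid cells, was detected in 4 of 6 Mono cells and listed at 0 in all 13 Gran-2 cells. Of the 442 genes past the difference, Elmo2, an adaptor for Rac activation, was the only one whose levels did not overlap. They ran from 4.73 to 7.75 in Mono and from 0 to 3.36 in Gran-2.

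Among the genes lower in Mono, Slc40a1, the iron exporter ferroportin, was detected in 0 of 6 Mono cells (upper limit 50%) and in 11 of 13 Gran-2 cells (84.6%, 54.6 to 98.1). Its levels ran from 0 to 0.21 in Mono and from 0 to 9.47 with a median of 7.83 in Gran-2, a difference of −6.23. Ypel5, a protein bound to the CTLH ubiquitin ligase complex, differed by −5.47, Ffar2, a receptor for short-chain fatty acids, by −4.66, and Hsd11b1, which regenerates active glucocorticoid, by −4.54. Tma16, known from yeast as a ribosome assembly factor, differed by −4.95 and was detected in 1 of 6 Mono and 10 of 13 Gran-2 cells. Gsn, gelsolin, which severs actin filaments, was detected in 0 of 6 Mono cells (upper limit 50%) and 9 of 13 Gran-2 cells, a difference of −3.63.

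Lists of growth, division and stress genes had at most 1 member each past the difference, beside 5.76% of all kept genes upward. Such counts do not set these lists apart from other genes. Their medians stand beside the general shift of 0.48. All 22 cytosolic ribosomal protein genes were higher in Mono, beside 63.2% of all kept genes. None was past the difference, and their median was 0.65. They took between 3.78% and 5.41% of the TPM in Mono cells and between 2.35% and 3.78% in Gran-2 cells. Endoplasmic reticulum chaperones had a median of 1.10 over 17 genes, DNA replication genes 1.12 over 20, and ribosome biogenesis genes 1.08 over 17. Past the difference upward were Mcm7, a subunit of the replicative helicase (3.78), and Rrp9, a small nucleolar RNA protein (3.45), with none downward. Mitosis genes had a median of 0.41 over 20 genes and none past the difference. Mki67, a marker of cycling cells, was detected in 6 of 6 Mono and 11 of 13 Gran-2 cells and differed by −0.08. Immediate early and heat shock genes, which respond to handling as well as to signals, had a median of 1.53 over 18 genes, and the chaperone partner Dnajb1 was past the difference (3.98). Fos had levels from 10.48 to 12.37 in Mono and from 0.67 to 11.03 in Gran-2. Interferon response genes had a median of 0.71 over 7 kept genes of 19 and none past the difference.

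Markers of T and NK, dendritic, erythroid, megakaryocyte, eosinophil and B lineage cells were at or near 0 in most cells, and those of other types were not. The 10 T and NK cell markers were detected in none of the 19 cells. Of the dendritic, erythroid and megakaryocyte lists 1 marker each was detected in any cell, and of the eosinophil and B lineage lists 2 each. The summed TPM of the dendritic list ran up to 0.690 in Mono and 2.53 in Gran-2, that of the erythroid list up to 0.790 and 1.02, of the megakaryocyte list up to 0.390 and 10.7, of the eosinophil list up to 0.170 and 8.61, and of the B lineage list up to 3.14 and 31.98. Of the basophil and mast cell list 5 of 8 markers were detected in at least 1 cell, and its summed TPM had a median of 552 in Mono (0.290 to 1501) and 516 in Gran-2 (1.01 to 1364). Hdc, histidine decarboxylase, which some neutrophil precursors also express, was detected in 5 of 6 Mono and 13 of 13 Gran-2 cells, and Mcpt8, a basophil protease, in 0 of 6 (upper limit 50%) and 5 of 13. Prss34, Fcer1a and Cd200r3 were at 0 in all. Of the macrophage list 5 of 10 were detected, and its summed TPM had a median of 1.22 in Mono (0 to 209) and 813 in Gran-2 (39.4 to 1094). Slc40a1 and Vcam1, a cell adhesion molecule, carried it, while C1qa, C1qb, C1qc, Cd5l and Axl were at 0 in all 19 cells. Of the stem and multilineage list 7 of 10 were detected in at least 1 cell, and its summed TPM had a median of 286 in Mono (87.3 to 706) and 94.5 in Gran-2 (30.98 to 160). Its 2 kept members were Cd34 and Ly6a, a surface protein of stem cells, which was detected in all 19 cells and differed by 0.90. Mecom, Procr and Sox4 were detected in none of the 19. The part of other cells in the differences was not tested.

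Cells of 1 state differed among themselves. The mean level of the kept monocyte progenitor markers ran from 3.48 to 8.27 in Mono cells and from 1.03 to 5.0 in Gran-2 cells, and that of secondary and tertiary granule genes from 5.07 to 8.61 in Mono and from 6.83 to 10.28 in Gran-2. Mono cell 67 had the lowest monocyte level in its state, 3.48, with Csf1r at 0.38 and Ctss at 0, but Irf8 at 8.72. It also had the fewest genes detected, 3512. Mono cell 55 had the highest granule level in its state, 8.61, with Chil3 at 13.49, S100a9 at 13.27 and Gfi1 at 0, beside Irf8 at 7.76 and Csf1r at 7.99. Without cell 55 the differences of Chil3 and Fcnb were −6.03 and −3.90. Gran-2 cell 59 had the lowest granule and monocyte levels of its state, 6.83 and 1.03. Its mean level of cytosolic ribosomal protein genes, 7.54, was also the lowest there. It detected 2531 genes, with Fcnb at 0.

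Gran-2 cell 66 was the one that carried Irf8 at 8.23 and Ms4a6c at 7.39. It also held Klf4 at 9.67, the highest of all 19 cells, with Ly86 at 8.46, Ccl9 at 7.40, Pld4 at 6.01 and Ccl4 at 9.67. Beside these it had the highest Ngp and Ltf levels of all 19 cells, 15.05 and 9.82. Its Csf1r level was 0.61 and Ctss was at 0. It detected 3974 genes, within the range of both states. Whether its capture site held more than 1 cell was not tested, and no doublet caller was run on this number of cells. Without it Ms4a6c was at 0 in all 12 Gran-2 cells, and the differences were 7.36 for Irf8, 4.28 for Klf4 and −2.77 for Ngp, which then no longer reached the set difference. At least 2 of Irf8, Ms4a6c, Csf1r and Ctss were detected in 6 of 6 Mono cells (100%, 54.1 to 100), against 1 of 13 Gran-2 cells (7.69%, 0.195 to 36.03), which was cell 66. All 4 genes are among the 15 largest differences upward in these same cells, and Irf8 and Ms4a6c are given markers. The counts therefore restate that choice and are no separate evidence.

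**Figure D4:**
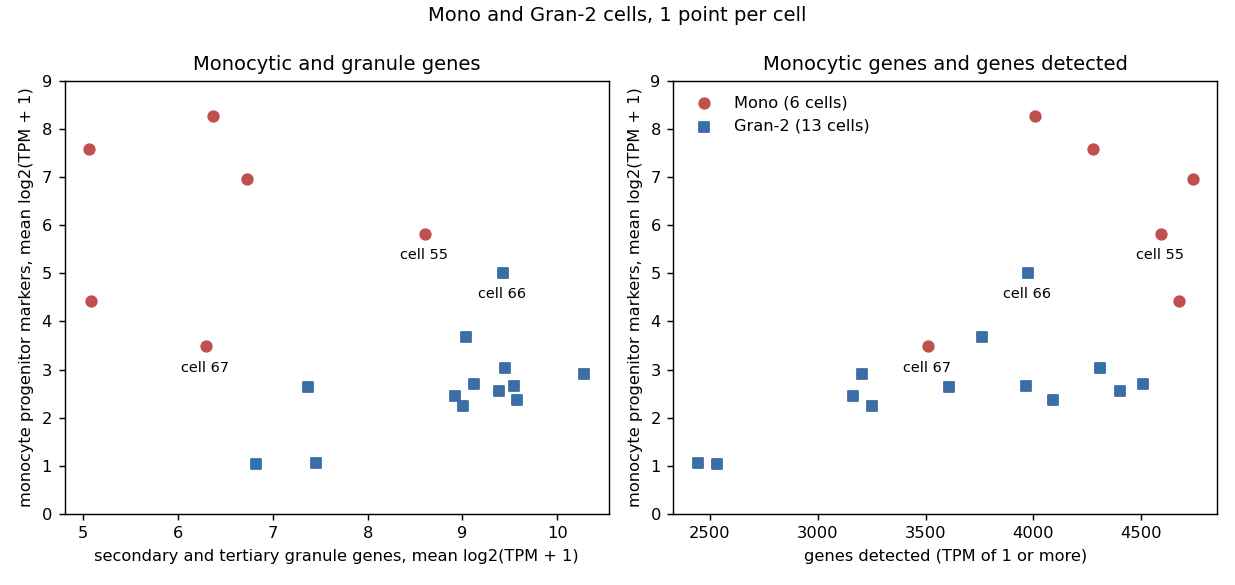
Mean log2(TPM + 1) of the kept monocyte progenitor markers in each of the 6 Mono and 13 Gran-2 cells, against the mean of the kept secondary and tertiary granule genes (left) and the number of genes detected (right). Mono cell 55 has the highest granule level of the Mono cells, 8.61, Gran-2 cell 66 has the highest monocyte level of the Gran-2 cells, 5.0, and Mono cell 67, with 3512 genes detected, has the lowest monocyte level of the Mono cells.

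The other states of the same sort place the 2 compared here. Chil3 averaged a level of 7.95 in Mono, 12.87 in Gran-2, 9.69 in the 3 Gran-1 cells, 11.21 in the 5 Myelo-1 cells, 14.23 in the 11 Myelo-2 cells and 13.92 in the 7 Myelo-4 cells. Camp averaged 6.20 in Mono, 11.17 in Gran-2, 8.46 in Gran-1, 13.19 in Myelo-1, 15.26 in Myelo-2 and 15.43 in Myelo-4. Mpo was level in the compared states, 14.50 in Mono and 14.19 in Gran-2, and lower in Myelo-1, Myelo-2 and Myelo-4 at 11.84, 8.80 and 5.21. Irf8 averaged 8.15 in Mono, 1.36 in Gran-2 and 6.55 in Gran-1, and 2.08 or less in the Myelo states named here. Gran-1 lay between the 2 compared states in Irf8, Chil3 and Camp, and its Mpo level, 13.10, was nearest to theirs among the other states named here. In the marker Fcnb and in Gfi1 its mean level was instead below those of both compared states. With 3 Gran-1 cells and genes pointing both ways, Gran-1 cannot be called an intermediate state.

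The GMP cells carry other run names. Of them, 13 have names that spell out a date which the CD11b+ run name may also give, but 0 of these are Mono and 1 is Gran-2, so the Mono cells of the 2 sorts come from different runs and sort and run cannot be told apart for them. The large other run holds 32 Mono cells and 9 Gran-1 cells, none shared with the 19 cells, and its Gran-1 cells stand in for Gran-2, of which it has too few. Levels in those Mono cells are set beside the CD11b+ Mono cells, which does not by itself show that a gene follows the state name. Irf8 averaged 8.15 in CD11b+ Mono and 7.53 in GMP Mono, Ms4a6c 6.96 and 8.51, and Ctss 6.18 and 7.11. Csf1r averaged 6.48 and 3.06. Psmb8 averaged 8.54 and 8.60, but it also averaged 8.62 in the Gran-1 cells of the other run. Ccl4 averaged 8.38 in CD11b+ Mono but 1.17 in GMP Mono, Slc20a1 7.81 and 1.28, and the immediate early factor Klf6 9.48 and 3.52. Granule genes differed likewise, with Chil3 at 7.95 in CD11b+ Mono and 0.73 in GMP Mono, Camp at 6.20 and 0.20, and S100a8 at 10.10 and 3.07.

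In the other run, Mono minus Gran-1 had a median of −0.15 over the kept genes. Of the 58 genes lower in CD11b+ Mono, 48 (82.8%) were also lower in its Mono cells, with a median of −1.24, beside 57.5% of all kept genes that were lower in CD11b+ Mono. Of the 384 genes higher in CD11b+ Mono, 165 (43%) were also higher there, with a median of −0.21, beside 44.1% of all kept genes that were higher. Of the 16 kept monocyte progenitor markers 15 were higher in its Mono cells, with a median of 2.61, beside 43.4% of all kept genes. The 16 kept secondary and tertiary granule genes had a median of −0.73, with 3 higher. The comparison partner is another state there, so these values stand side by side without a test.

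**Figure D5:**
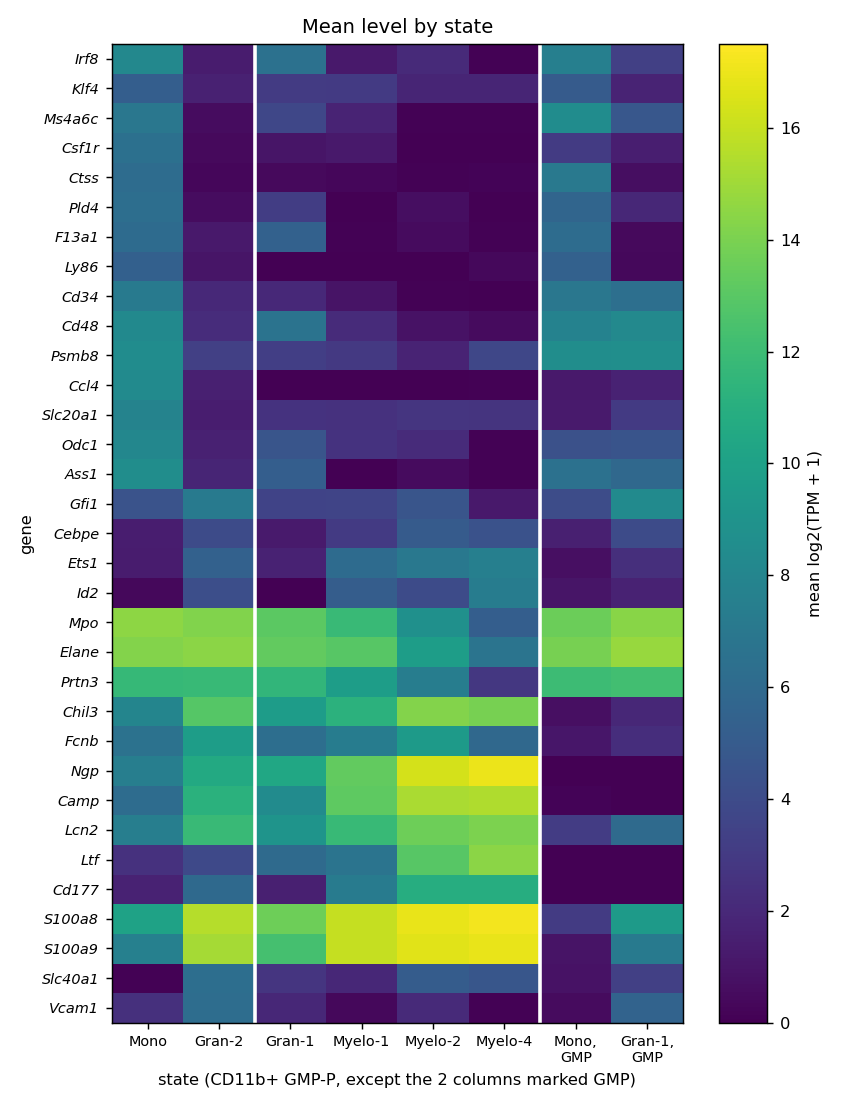
Mean log2(TPM + 1) of 33 named genes in Mono and Gran-2 (left block), in 4 other CD11b+ GMP-P states (middle block) and in the Mono and Gran-1 cells of the separate GMP run (right block). Irf8, Ms4a6c and Ctss are high in both Mono columns, Ccl4 and Slc20a1 in the CD11b+ one only among the columns drawn, and Ngp, Camp and S100a8 climb through the Myelo columns.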

How the data were processed

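Single-cell libraries of 121 sorted mouse bone marrow cells were read from 2 deposited tables. The authors' table of values holds log2 expression of 23946 genes, and back-transformed (2 to the power of the value, minus 1) the 19 cells sum to between 999580 and 1000000, so values were taken as log2(TPM + 1). Bowtie2, RSEM and mm9 are named in the submitters' processing notes; versions: not given in the sources used here. TPM keep no read number, so depth per cell is unknown, and 80.9% of the values in these cells were 0. The other deposited table gives each cell's state, of an unstated method. Cells were grouped by run name and state, and no cell name is repeated among the 19.

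Means, SD, differences and shares were computed with Python 3.11.15, pandas 2.3.3, numpy 2.4.6 and scipy 1.17.1, and the comparison was tested on simulated data. The compared cells and all 33 gene lists were chosen with earlier results of these data known. Genes named are the 4 markers, Gfi1, 5 sort genes, the 4 kept members that differed most in each list and the 15 largest differences in each direction, not all of which are described. Some listed genes enter the counts and medians and are not reported here one by one. Mpo, Elane, Prtn3, Ngp, Ltf, Pglyrp1, Ly86, F13a1, Ccl9, Cx3cr1, Csf3r, Cebpa, Spi1, Zeb2, Lyz2, Tmem176b, Cd74, Ly6g, Hp, Mmp8, Dusp1, Mki67, Bax and Elmo2 fall outside that rule and were chosen once their values were known. Promoters come from RefSeq on GRCm38.p6, matched by symbol or synonym.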

Additional observations from a re-analysis of the deposited data

Results flagged for a closer look

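In the 6 Mono cells, the highest or the lowest value of 29 of 169 measures lay far from the other 5, by the Dixon limit for 6 values. That limit flags about 1 in 20 unrelated measures by chance only where values are normally distributed. Many single-cell levels were 0, so this rate does not apply here. The count therefore cannot show an excess of cells that lie apart. The measures are not independent. The share of TPM in secondary and tertiary granule genes was 2.23% in Mono cell 55, in S100 genes 3.29% and in S100a8 and S100a9 together 3.12%, each the highest of the 6. The same cell had the highest S100a9 level, 13.27, and Mcpt8 level, 0.69, and the lowest Cd93 level, 0.16. Mono cell 67 had the lowest mean level of DNA replication genes, 2.93, and the lowest Csf1r, Ifnar2, Lig1 and Dusp1 levels, 0.38, 0.25, 0 and 7.59, with the highest Ets1 level, 5.54. Mono cell 89 had the lowest mean level of basophil and mast cell markers, 0.18, and of stem and multilineage markers, 4.78, and the lowest Cd34, Nop56, Hdc and Bcap29 levels, 3.39, 4.70, 0.37 and 0.84. Mono cell 75 had the lowest Asb6 and Ccl4 levels, 0 and 1.06, and the highest Pilrb1, Hsd11b1 and Cx3cr1 levels, 4.42, 4.30 and 0.19. Mono cell 83 had the lowest Itga4 and Pglyrp1 levels, 0 and 0.89, and the highest Ifi47 level, 0.34. Mono cell 92 had the highest Trem1, Gsn and Ffar2 levels, 8.02, 0.29 and 4.58. Levels are log2(TPM + 1), and those under 1 are below a TPM of 1.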

How the results depend on the processing

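No test between the states was run, so settings move values and counts only. All 59 named genes past the difference kept their sign under every setting tried. Leaving out each cell in turn, 50 of the 59 stayed past the difference, and Fcnb, Ngp, Pglyrp1, Tmem176b, Clec7a, Clec4a2, Cd93, Cd68 and Rrp9 did not under at least 1 omission. With only the cells that detect as many genes as the lowest Mono cell, Klf4, Ctsc, Cd93, Cd68, Rrp9 and Ngp were no longer past it. Of the 59, 27 were no longer past it with a pseudocount of 10, 20 on the log2 ratio of mean TPM, 3 on medians and 19, which that filter drops, with detection in at least 10 cells. Genes higher and lower in Mono past the difference numbered 384 and 58, and 1051 and 190 at a difference of 2, 224 and 43 with detection in at least 10 of 19 cells, 40 and 12 with a pseudocount of 10, 270 and 157 on the log2 ratio of mean TPM, 1003 and 210 on medians, and 258 and 146 with only cells that detect as many genes as the lowest Mono cell. Of the 384 and 58, 128 and 42 remained on the ratio of means and 214 and 51 with those cells. Leaving out each cell in turn gave 343 to 497 higher and 54 to 84 lower. Without a filter on detection, the median of genes described as repressed by Gfi1 was 0.47 and that of chemokine receptors and adhesion genes 0.21. With detection in at least 10 cells, chemokine receptors and adhesion genes had a median of 0.15, shared myeloid transcription factors −0.86, innate pattern receptors −1.60 and interferon response genes 2.54. With a pseudocount of 10, monocytic and dendritic transcription factors had 0.74, genes described as repressed by Gfi1 1.24 and chemokine receptors and adhesion genes 0.59. On the ratio of mean TPM, monocytic and dendritic transcription factors had 0.72, genes described as repressed by Gfi1 1.05 and lysosomal genes 0.60. On medians over cells, monocyte progenitor markers had 5.10. With only the cells that detect more genes, late neutrophil genes had −3.27 and chemokine receptors and adhesion genes 0.50. Leaving out each cell in turn moved monocytic and dendritic transcription factors between 1.76 and 3.10, monocyte progenitor markers between 2.61 and 3.72, and secondary and tertiary granule genes between −3.16 and −1.99. The S100, mitosis and shared myeloid factor medians lay on both sides of 0 (−0.91 to 0.16, −0.15 to 0.83 and −0.05 to 0.58). The causes were not tested. No cell fell under the planned limit of 1987 detected genes, so that alternative gave no value. No paired analysis was possible because cells carry only a capture number and no animal or pair is named.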
